A study of Rattus norvegicus with 14 samples.

Results

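Cytokine and chemokine ligand genes were described in the lateral ventricle choroid plexus (CP) of Wistar rats after removal of the gonads. Members were all genes whose symbol was Ccl, Cxcl or Xcl with a number, Cx3cl1, or Il with a number and at most 1 further letter, with receptors and antagonists left out. The rat gene list held 70 such genes, of which 65 had a named probe, among 15148 genes with a named probe in all. The 65 comprised 33 chemokine ligands and 32 interleukins. The other 5 (Cxcl3, Il17d, Il19, Il27 and Il31) were not analysed here. Each gene was read from its brightest probe.

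The groups were 3 pools of ovariectomized (OVX) females and 3 of sham-operated females, with 4 pools of orchidectomized (OOX) males and 4 of sham-operated males. All animals were Wistar rats operated on at 2 months of age, CP was collected 2 weeks after surgery, and RNA of 3 animals entered each pool, which was hybridised to 1 single-colour (Cy3) array. The methods name 3 pools per group while the labels give 4 for each male group, and the animal numbers given are fewer than separate pools would need, so the pools may not be independent replicates and p-values measure only the spread between these arrays.

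Values are the log2 signal minus the median of all probes of the same array, so that 0 is the middle of the array and each unit is a doubling. A probe counted as well above background where the scanner software marked at least 1 of its spots so, and values of dim probes have only an upper bound. Arrays of a group correlated at 0.979 to 0.992 across features. The lowest correlations were among males, where OOX male 2 and sham male 1 had the highest summed signal of neuron markers (31.2 and 64.0 times the array median, against 6.54 to 15.8 in the other OOX and 3.73 to 9.76 in the other sham males) and of astrocyte markers (92.2 and 77.6 times, against 32.3 to 45.8 and 26.0 to 33.0 times). In females, summed neuron markers were 42.0 and 36.6 times the array median in sham females 2 and 3. They were 7.88 times in sham female 1 and 5.48 to 17.7 times in OVX females. Astrocyte markers in the same order were 69.4 and 68.0 times, then 36.5 times and 33.6 to 56.9 times. The part of these markers in the female differences was not tested. Markers of the CP epithelium were well above background on every array for 9 of 9 genes. All 3 sham female arrays and OVX female 1 were scanned on day 1, and the other arrays on day 2. Only OVX female 1 and sham female 3 shared a slide across the female groups, and only OOX male 4 and sham males 1 and 2 across the male groups.

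Chemokines are small secreted proteins that direct the movement of leukocytes through receptors coupled to G proteins, and they are classed by the spacing of their first cysteines (C, CC, CXC and CX3C). Interleukins signal between immune, epithelial and stromal cells through receptors on the cell surface. The CP lies between blood and cerebrospinal fluid, holds resident macrophages, and is a known gateway through which leukocytes reach the ventricles, so that its epithelium, stroma and immune cells can each be a source of these transcripts. In RNA of whole tissue, fewer cells of a type and less RNA per cell cannot be told apart.

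Promoter sequence from the RefSeq table of build GRCr8 was present for 54 of the 65 members, and the 250 bases before the start site are shown for 3 of them. Xcl1 is shown because it was called in females and was measured on every array, and Ccl7 and Cxcl1 because they were inflammatory chemokines that split the sham males by slide. Capitals mark an NF-kB site (GGGA, any 2 bases, TTCC) or an AP-1 site (TGANTCA) on either strand.
Xcl1, chr13:79785441-79785690, minus strand: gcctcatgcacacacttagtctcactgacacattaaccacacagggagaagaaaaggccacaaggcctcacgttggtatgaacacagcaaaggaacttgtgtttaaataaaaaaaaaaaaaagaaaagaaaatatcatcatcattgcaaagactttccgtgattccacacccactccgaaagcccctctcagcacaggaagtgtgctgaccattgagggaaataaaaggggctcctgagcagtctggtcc
Ccl7, chr10:67513845-67514094, plus strand: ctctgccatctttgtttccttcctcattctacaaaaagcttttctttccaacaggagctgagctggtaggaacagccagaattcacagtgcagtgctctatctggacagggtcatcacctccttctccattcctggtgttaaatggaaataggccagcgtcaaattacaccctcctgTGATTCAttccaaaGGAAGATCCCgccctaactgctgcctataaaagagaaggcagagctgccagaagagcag
Cxcl1, chr14:17479322-17479571, minus strand: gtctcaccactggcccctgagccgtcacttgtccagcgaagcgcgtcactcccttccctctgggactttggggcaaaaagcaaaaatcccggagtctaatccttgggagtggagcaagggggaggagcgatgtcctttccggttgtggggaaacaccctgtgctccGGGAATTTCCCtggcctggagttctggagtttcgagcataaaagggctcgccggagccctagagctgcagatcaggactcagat
NF-kB is the transcription factor that induces many inflammatory chemokines, and AP-1 is induced by stress and growth signals. The NF-kB letters stood in 6 of the 54 member promoters (Ccl7, Cxcl1, Cxcl6, Cxcl10, Cxcl11 and Il6), a share of 11.1%, against 1.08% of all 33469 promoters of this length. In Ccl7 they began at base 192 and the AP-1 letters at base 178, and in Cxcl1 a pair of overlapping matches on opposite strands began at bases 167 and 168, counted from the 5′ end. The AP-1 letters stood in 9 of the 54 (16.7%), against 6.34% of all promoters. The estrogen response element (GGTCA, any 3 bases, TGACC) was in none of the 54 and in 8 of all promoters, which says only that these letters were not in this window. None of the 3 motifs was in the Xcl1 window. Of the 6 promoters with the NF-kB letters, only those of Ccl7 and Cxcl1 belonged to genes that split the sham males by slide. Other members that split so, such as Il1b and Ccl5, were not among the 6, and a link of the letters to the split was not tested.

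Of the 65 members 38 were well above background on all 14 arrays, 17 on some and 10 on none. The share measured on all arrays was 58.5% of members, against 75.5% of all named genes. By role, all arrays measured 13 of 20 CC chemokines, 8 of 11 CXC chemokines, both Cx3cl1 and Xcl1, 3 of 7 members of the IL-1 family and 3 of 5 of the IL-17 family. They also measured 3 of 9 interleukins of the common gamma chain and type 2 group, in which Il3 was placed as well, and 1 of 3 members of the IL-12 family. By group, all OVX arrays measured 43 members and all sham female arrays 40, while all OOX arrays measured 43 and all sham male arrays 39. No member was saturated on any array.

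In females 9 of 65 members passed an adjusted p under 0.05 in limma, 4 higher and 5 lower in OVX than in sham CP. The background was 7.23% of all 27519 features called, 2.74% higher and 4.48% lower, and the members' shares were 6.15% higher and 7.69% lower. The features include probes without a gene name. Over the 15148 named genes alone 1.83% were called higher and 4.42% lower. Of the 43 members that all arrays of at least 1 female group measured, 2 were called, Il34 and Xcl1, and both were higher in OVX. Of all 12512 genes measured that well 1.56% were called higher and 0.983% lower. The median log2 difference was 0.02 over those 43 members and −0.05 over those genes, and −0.07 over all 65 members and over all named genes alike. Ccl1, Il1a and Il4 entered the 43 only through OVX females, where they were higher, by 0.57, 0.76 and 0.31. The median over the 43 is therefore not free of that selection.

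Il34 encodes an alternative ligand of the colony stimulating factor receptor Csf1r, on which microglia and other tissue macrophages depend. Its log2 signal was 6.08, 5.53 and 5.84 in OVX females, against 4.85, 4.67 and 4.88 in sham females. Every OVX array lay above every sham array, with a difference of 1.02 (SE 0.17, limma adjusted p = 0.0401), a 2.02-fold higher signal with an interval of the log2 difference from 0.60 to 1.44. In males it was 4.51, 5.20, 5.08 and 4.98 after OOX, against 4.72, 5.20, 5.33 and 5.05 in sham males. The male groups overlapped and their difference of −0.13 (SE 0.20, limma adjusted p = 0.959) had an interval from −0.59 to 0.32. The male effect minus the female effect was −1.15 (SE 0.28, limma adjusted p = 0.145), which did not pass.

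On the slide that held both female groups Il34 differed by 1.21. The call was lost when any of the 6 female arrays was left out, with adjusted p from 0.0595 to 0.125. Slide or scan day as a block also ended it, but OVX female 1 is the only OVX array behind the effect there. With slide as a block the difference is the same 1.21 and not a further check. The log2 difference stayed between 0.89 and 1.28 over these fits. Csf1r itself averaged 1.15 ± 0.06 in OVX and 0.97 ± 0.16 in sham females (SD, n = 3 each), and its difference of 0.18 did not pass (limma adjusted p = 0.489). Csf1, the other ligand of that receptor, averaged 2.83 ± 0.16 in OVX and 2.46 ± 0.14 in sham females (SD, n = 3 each) and did not pass either (limma adjusted p = 0.196).

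Xcl1 encodes lymphotactin, a C chemokine made mainly by T and NK cells that attracts dendritic cells carrying Xcr1. Its log2 signal was 4.13, 3.47 and 4.0 in OVX females, against 2.87, 1.89 and 2.39 in sham females. The groups did not overlap, and the difference was 1.49 (SE 0.29, limma adjusted p = 0.0401), a 2.80-fold higher signal with an interval of the log2 difference from 0.77 to 2.20. A second probe of Xcl1 gave a female difference of 1.52, with 2.92 to 3.59 in OVX and 1.25 to 2.32 in sham arrays. In males the first probe gave 3.55, 3.56, 3.34 and 3.75 after OOX, against 2.14, 3.52, 3.37 and 3.48 in sham males, where sham male 1 alone stood low.

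The male difference of Xcl1 was 0.43 (SE 0.31, limma adjusted p = 0.854), and 0.09 without OOX male 2 and sham male 1. Within the shared female slide Xcl1 differed by 1.75. Leaving out any 1 female array took its adjusted p to between 0.0668 and 0.125. Slide or scan day as a block also ended the call, in fits that rest on OVX female 1 alone among the OVX arrays. The log2 difference ran from 1.24 to 1.75 over these fits. The male effect minus the female effect was −1.06 and did not pass (limma adjusted p = 0.417). Summed T and NK cell markers were 4.58 to 5.15 times the array median in OVX females, against 3.88 to 4.29 times in sham females, with 0 of 10 such genes called, and their part in the result was not tested. Xcr1 was dim on all 14 arrays.

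**Figure D1:**
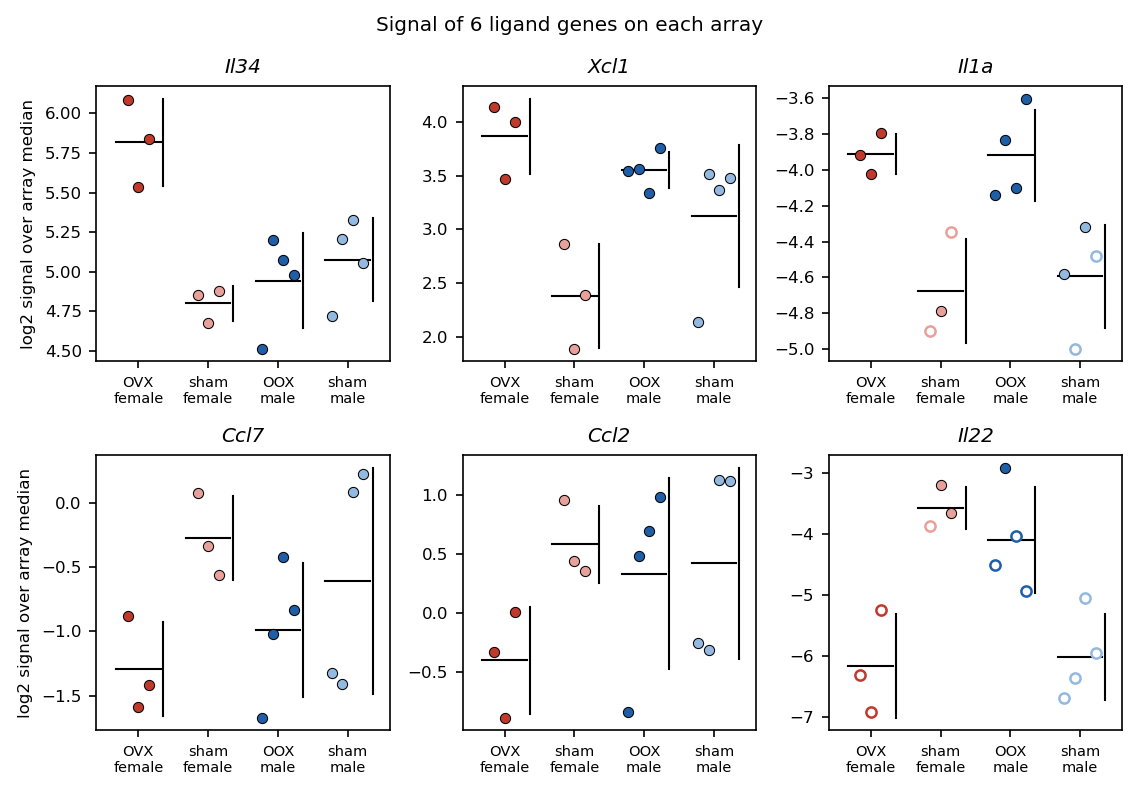
Log2 signal over the array median (vertical axes, a separate range for each gene) of 6 ligand genes in the 4 groups. Points are arrays, open points were not well above background, horizontal lines are group means and vertical lines are 1 SD (n = 3 per female group, 4 per male group). Il34 and Xcl1 were higher on every OVX array than on any sham female array, and sham males fell into a low and a high pair for Ccl2 and Ccl7.

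Il22, an IL-10 family cytokine that acts on epithelia, was called lower in OVX than in sham females, with no fold given because no OVX array and only 2 of 3 sham arrays measured it. Its log2 signal was −6.30, −6.92 and −5.24 in OVX females, against −3.87, −3.19 and −3.65 in sham females, whose replicate 1 was also dim. The fitted difference was −2.59 (SE 0.43, limma adjusted p = 0.0401) and the difference on the shared slide was −2.65, but with normexp background correction it was −0.39 (adjusted p = 0.296) and any 1 female array left out ended the call (adjusted p from 0.0583 to 0.123). In males the values ran the other way, at −4.50, −2.91, −4.03 and −4.93 after OOX, against −6.69, −6.36, −5.05 and −5.95 in sham males. The male groups did not overlap either, but only OOX male 2 measured Il22 and the difference of 1.92 did not pass (SE 0.48, limma adjusted p = 0.435).

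The male effect of Il22 minus its female effect was 4.51 (SE 0.73, limma adjusted p = 0.0281). It was the only 1 of the 65 members called in this contrast, where 0.229% of all features were called, 0.142% higher and 0.0872% lower. An unadjusted p under 0.05 was reached by 6 members, against 11.7% of all features. Without OOX male 2 and sham male 1 it was 3.89 (limma adjusted p = 0.0391). Il22 was measured on 3 of 14 arrays. The difference fell to 0.41 with normexp (adjusted p = 0.468), and the call was lost when any 1 of 8 arrays was left out, namely OVX 1 and 2, the 3 sham female arrays, OOX male 3 and sham males 2 and 4 (adjusted p from 0.0563 to 0.0936). Of the Il22 receptor chains Il22ra1 averaged −3.66 ± 0.33 in OVX and −4.52 ± 0.45 in sham females (SD, n = 3 each) and did not pass (limma adjusted p = 0.132). The shared chain Il10rb averaged 3.94 ± 0.31 in OVX and 4.0 ± 0.18 in sham females (SD, n = 3 each, limma adjusted p = 0.878).

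The other called members in females were dim. Il12b, the p40 subunit shared by IL-12 and IL-23, was measured on 1 OVX array and no sham array, with a fitted difference of 1.54 (limma adjusted p = 0.0401) that was 0.049 with normexp (adjusted p = 0.972). Cxcl11, an interferon-induced chemokine, was dim on all 6 arrays, with −4.84, −5.17 and −4.53 in OVX against −5.87, −6.28 and −5.94 in sham females. Il3, Il36a, Ccl21 and Ccl28 were dim on all 6 arrays as well and had fitted differences from −0.85 to −0.74. No fold is given for these 6 genes. No member stayed called when any female array other than sham female 2 was left out, and with normexp only Il34 and Xcl1 did. Slide or scan day as a block ended the female calls too, in fits whose female effect rests on 1 OVX array.

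Among the 13 members that no female array measured, 4 were called lower and 1 higher, with a median difference of −0.48. Among all 1752 genes of that kind 30.8% were called lower, the same share as of the members, and the median was −0.60. The lowest log2 signal marked as above background was −6.13 to −5.87 on OVX arrays and −5.20 to −4.19 on sham female arrays. Whether the calls of these members share a source with that shift was not tested.

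**Figure D2:**
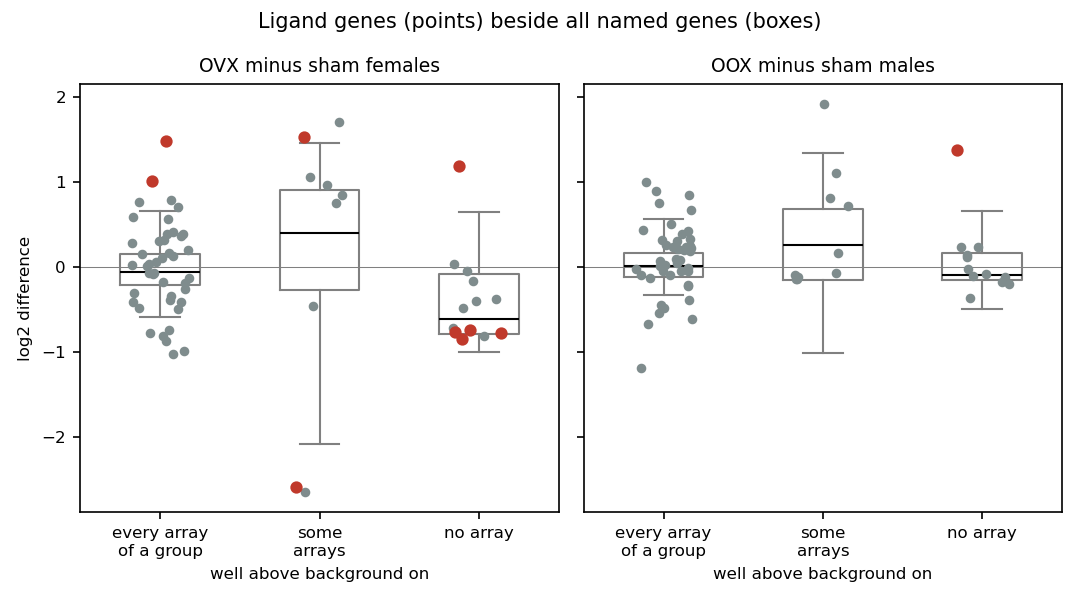
Log2 differences (vertical axis) of the ligand genes (points, red where the adjusted p was under 0.05) beside all named genes (boxes with quartiles and median, whiskers at percentiles 5 and 95), split by the arrays on which a gene was well above background (horizontal axis). In females the genes that no array measured were shifted down as a whole, with a median of −0.60 over all genes and −0.48 over the ligand genes.

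Members just short of the threshold in females included inflammatory cytokines in both directions. Il1a, an alarmin that starts inflammation through Il1r1, had −3.92, −4.02 and −3.80 in OVX, against −4.90, −4.79 and −4.35 in sham females, a difference of 0.76 (SE 0.18, limma adjusted p = 0.0558). It was measured on all 3 OVX arrays but on only 1 of 3 sham female arrays, so the sham values are mostly bounds. A second probe of Il1a was dim on every array. Ccl7, a monocyte chemoattractant, had −0.88, −1.59 and −1.42 in OVX, against 0.08, −0.34 and −0.56 in sham females, a difference of −1.02 (SE 0.25, limma adjusted p = 0.0622). Ccl2, the main ligand of the monocyte receptor Ccr2, had −0.33, −0.89 and 0.00 in OVX, against 0.95, 0.44 and 0.35 in sham females. Its difference was −0.99 (SE 0.28, limma adjusted p = 0.0888). None of these 3 genes overlapped between the female groups and none passed. On the shared slide the differences were smaller, at 0.43 for Il1a, −0.32 for Ccl7 and −0.68 for Ccl2, and with normexp that of Il1a was 0.030. Summed fibroblast markers were 142 to 220.5 times the array median in OVX, against 220.3 to 267 times in sham females, with 0 of 6 called, and their part in the Ccl2 and Ccl7 values was not tested.

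Il17c, an epithelial member of the IL-17 family, differed by 0.79 (limma adjusted p = 0.0660) with −1.95 to −1.35 in OVX and −2.57 to −2.23 in sham females. Il25, a relative of it linked to type 2 immunity, differed by 0.39 (limma adjusted p = 0.144). Il9, a growth factor for mast cells and T cells, differed by −0.78 (limma adjusted p = 0.108), with −2.07 to −1.30 in OVX and −0.90 to −0.66 in sham females. On the shared slide Il17c differed by 0.62, Il25 by 0.42 and Il9 by −0.40. Summed mast cell markers were 0.86 to 0.97 times the array median in OVX, against 1.53 to 1.66 times in sham females, with 1 of 5 called lower, while the median difference over the 5 markers was 0.20. Their part in the Il9 values was not tested.

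Over all members 28 of 65 (43.1%) had female groups that did not overlap, 13 higher and 15 lower in OVX, against 27.7% of all named genes. An unadjusted p under 0.05 was reached by 26 members (40.0%), against 22.4% of all features. By the methods' t-test and fold threshold 8 members were higher and 9 lower in OVX, against 5.98% and 6.97% of all features, and 0 passed after Benjamini-Hochberg adjustment. The CC chemokines had 10 of 20 differences above 0 and a median of −0.08, and the CXC chemokines 5 of 11 and a median of −0.38. The IL-1 family had 4 of 7 above 0 with a median of 0.41, the IL-17 family 4 of 5 with 0.39, and the common gamma chain and type 2 group 2 of 9 with −0.71. These medians are descriptions and hold dim genes too.

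The other ligands named here did not pass in females. Cx3cl1, the fractalkine that signals to microglia, averaged 5.45 ± 0.25 in OVX and 5.86 ± 0.06 in sham females (SD, n = 3 each), a difference of −0.41 with an interval from −0.79 to −0.02 (limma adjusted p = 0.203). Cxcl12, which retains leukocytes through Cxcr4, differed by 0.07, with an interval from −0.38 to 0.51. A second probe of Cxcl12, well above background on every array, gave −0.23 in females. In males that probe gave 0.55, where the brightest gave 0.08. Cxcl16 differed by −0.38, Cxcl14 by −0.48 and Cxcl1 by −0.81, and none passed (limma adjusted p of 0.323, 0.518 and 0.223). Il18 differed by −0.07, Il33, a nuclear alarmin, by −0.18, Il16 by −0.34 and Il1b by 0.41, with adjusted p from 0.518 to 0.847. Il6 was dim on all 14 arrays.

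In males 1 of 65 members was called, against 0.0618% of all 27518 features, 0.0581% higher and 0.00363% lower. Over named genes alone 0.0858% were called higher and 0% lower. Ccl26, an eotaxin that attracts eosinophils, had −4.93, −4.80, −4.72 and −4.89 after OOX, against −6.18, −6.31, −6.43 and −5.90 in sham males. The groups did not overlap and the fitted difference was 1.37 (SE 0.15, limma adjusted p = 0.0213), but no male array measured Ccl26 well above background and no fold is given. With normexp background correction the difference was −0.07 and with OOX male 2 and sham male 1 both left out its adjusted p was 0.159. In females Ccl26 lay at −5.12, −4.53 and −4.83 in OVX, against −5.91, −6.33 and −5.42 in sham females, a difference of 1.06 that did not pass (limma adjusted p = 0.0697).

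An unadjusted p under 0.05 was reached in males by 7 of 65 members (10.8%), against 7.69% of all features and 6.87% of all named genes. Groups that did not overlap were seen for 3 members (4.62%), Ccl26, Il1a and Il22, all higher after OOX, against 3.99% of all named genes. Il1a had −4.14, −3.83, −4.10 and −3.60 after OOX, against −4.58, −5.00, −4.32 and −4.48 in sham males, a difference of 0.67 (SE 0.19, limma adjusted p = 0.501). Its lower values in both sexes lay near the background, which it exceeded on 4 of 4 OOX and 2 of 4 sham male arrays. The median difference over members was 0.07, against 0.02 over all named genes. By the methods' t-test and fold threshold 4 members were higher and 0 lower after OOX, against 1.88% and 0.632% of all features, and 0 passed after adjustment.

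The other male members with the smallest p were not called. Ccl17, a chemokine of type 2 immunity, differed by 0.85 and Ccl12, a rodent monocyte chemokine, by 1.01 (limma adjusted p of 0.617 and 0.648). Il23a, the p19 subunit of IL-23, differed by 0.32, Il18 by 0.44, Il24 by −0.67, Cxcl2 by −1.18 and Ccl6 by −0.61, with adjusted p from 0.648 to 0.747. The groups overlapped for each of these 7 genes.

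**Figure D3:**
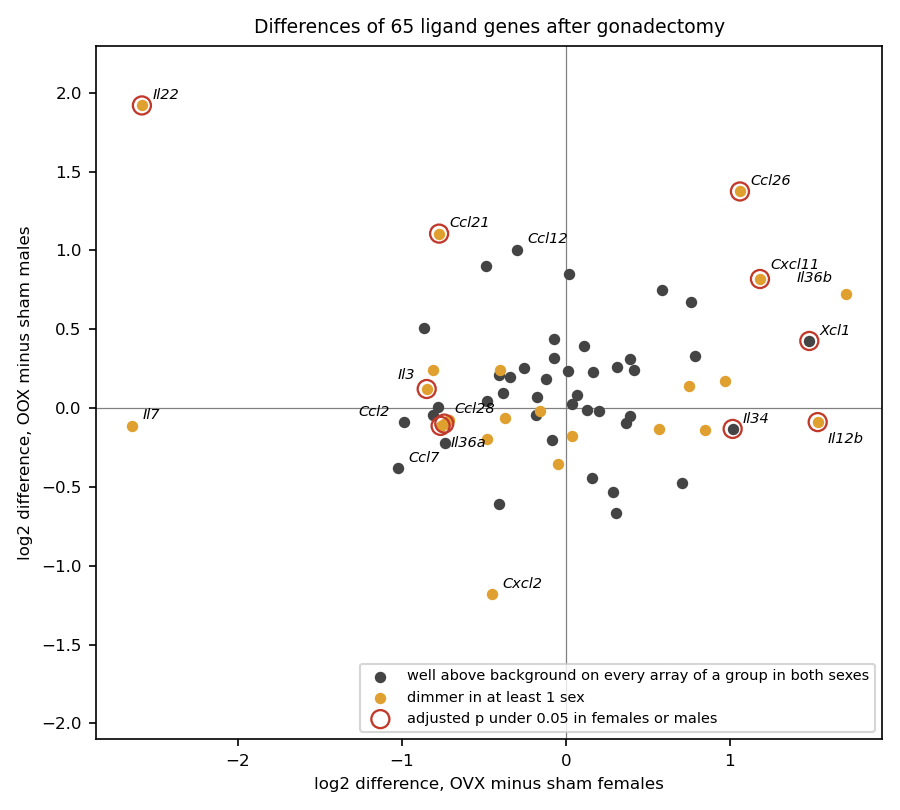
Log2 difference of each of the 65 ligand genes between OVX and sham females (horizontal axis) and between OOX and sham males (vertical axis). Dark points had at least 1 fully measured group in each sex, and red rings mark genes called in either sex. Il34 and Xcl1 are the ringed dark points, at 1.02 and 1.49 in females, and Il22 lies at −2.59 in females and 1.92 in males.

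Several inflammatory chemokines split the sham males by slide. Ccl2 was at −0.26 and −0.32 in sham males 1 and 2, which shared a slide, and at 1.12 and 1.12 in sham males 3 and 4 on another slide, beside −0.84, 0.48, 0.69 and 0.98 after OOX. The group difference was −0.09, with an interval from −1.21 to 1.04. Ccl7 was at −1.32 and −1.41 on the first of these slides and 0.08 and 0.23 on the second, and Il1b, a pyrogenic cytokine, at −0.90 and −0.53 against 1.55 and 0.83. Cxcl1, a neutrophil chemoattractant, was at −2.96 and −3.42 against −1.03 and −1.69, and Ccl6 at 0.10 and 0.46 against 1.48 and 1.31. Arrays of other groups lay on the same slides. OOX male 4, on the first slide, had 0.98 for Ccl2, −0.83 for Ccl7, 1.47 for Il1b, −1.45 for Cxcl1 and 0.12 for Ccl6. OVX female 2, on the second slide, had −0.89, −1.59, −0.21, −3.50 and −0.68 in the same order.

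Of the 38 members measured on all arrays, 17 (44.7%) were higher on both arrays of the second slide than on either of the first and 1 was lower. Among all 11438 genes measured so, 12.7% were higher and 6.38% lower. The median difference between the slides was 0.38 over these members and 0.90 over their 13 CC chemokines, against 0.04 over those genes. Among other members, named after their values were seen, Cxcl13 differed between the slides by 1.86, Ccl5 by 1.71, Ccl4 by 1.62 and Ccl3 by 1.41. Macrophage markers summed to 53.9 and 71.6 times the array median in sham males 1 and 2 and to 97.6 and 66.8 times in sham males 3 and 4, so that the slides overlapped. T and NK cell markers, at 3.68 and 3.99 times against 5.91 and 5.33 times, and fibroblast markers, at 136 and 191 times against 301 and 205 times, were higher on both arrays of the second slide. The part of these markers, of the slide and of the pools in the split was not tested.

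Within the slide that held both male groups OOX male 4 was compared with sham males 1 and 2 alone. There Ccl2 differed by 1.27, Il1b by 2.18, Cxcl1 by 1.74 and Ccl12 by 1.70. The pooled differences of these genes were −0.09, 0.24, −0.05 and 1.01. Ccl2, Il1b and Cxcl1 were described above as low on sham males 1 and 2, the only sham arrays here. Their large differences within the slide restate that split in part. Over all 65 members 46 were above 0 there, with a median of 0.45 against 0.11 over all named genes. The lowest, with Il12a and Il7 named after their values were seen, were Il24 at −1.48, Il12a at −1.33, Cxcl14 at −1.12 and Il7 at −1.08. The highest were Ccl21 at 4.63, which only OOX male 4 measured, and Cxcl13 at 2.98. The comparison within the slide rests on 1 OOX array.

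**Figure D4:**
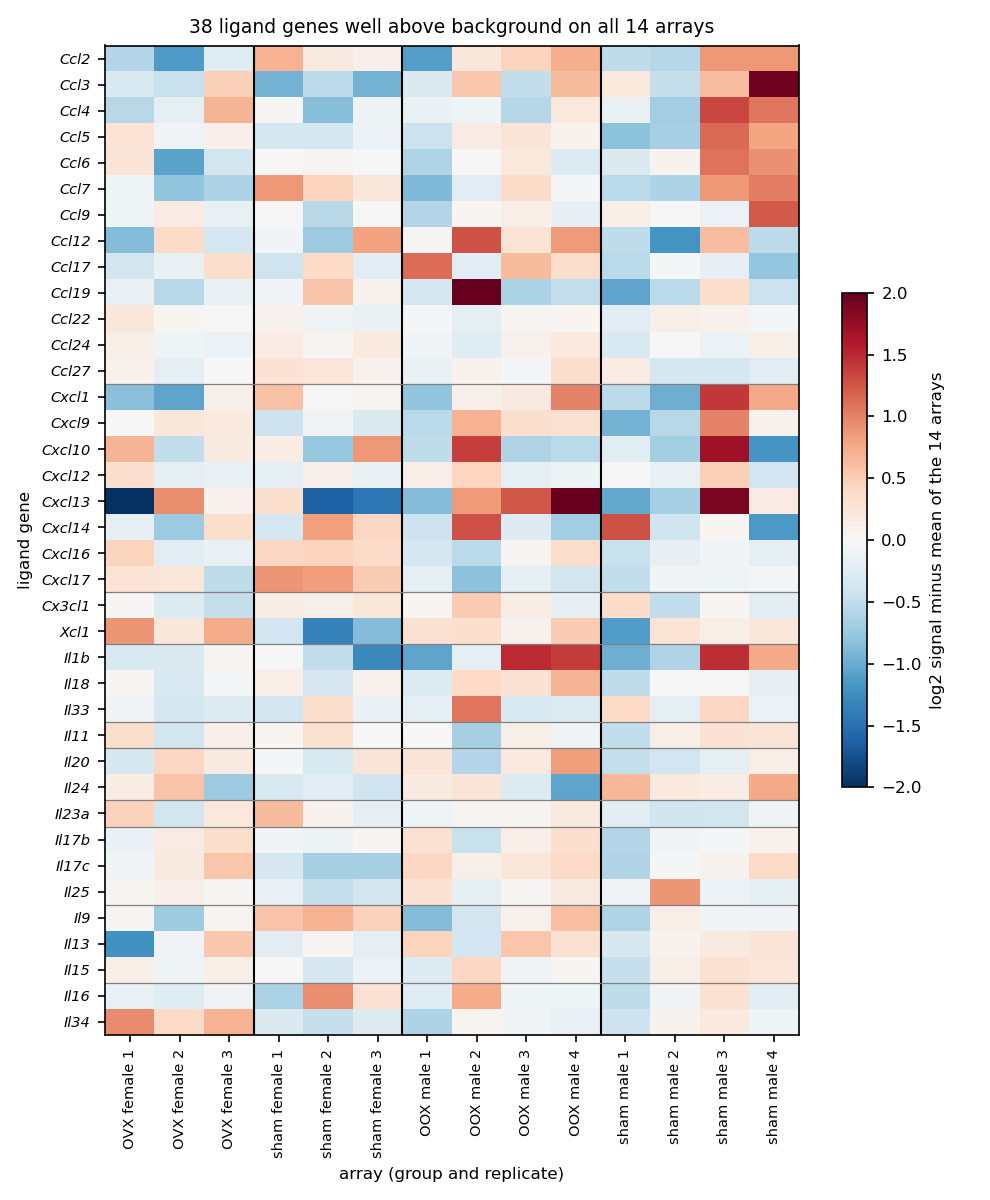
Log2 signal of the 38 ligand genes measured on all 14 arrays (rows, grouped by family), each minus its mean over the arrays (colour, cut at 2 in either direction), for each array (columns). Xcl1 and Il34 were high on the 3 OVX arrays, and Ccl2, Ccl7, Cxcl1 and Il1b were high on sham males 3 and 4 and low on sham males 1 and 2.

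Receptors and related genes were taken from lists. Of 20 measured chemokine receptors 0 were called higher and 1 lower in OVX females, which was Ccr3, dim on all 6 arrays. Ackr3, the scavenging receptor of Cxcl12, averaged 3.22 ± 0.15 in OVX and 4.04 ± 0.31 in sham females (SD, n = 3 each) and did not pass (limma adjusted p = 0.0540). Of 30 interleukin receptors 0 were called higher and 2 lower in OVX. Among all features 2.74% were called higher and 4.48% lower. Il13ra1, a receptor chain for IL-4 and IL-13, averaged 0.26 ± 0.04 in OVX and 1.01 ± 0.21 in sham females (SD, n = 3 each), a difference of −0.75 (SE 0.15, limma adjusted p = 0.0401), and Il9r was dim on all 6 arrays.

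Of 7 interleukin antagonists and decoys, 20 other cytokine ligands and 19 NF-kB targets measured, 0 passed in females, beside 7.23% of all features. An unadjusted p under 0.05 was reached in females by 7 of the 20 chemokine receptors and 12 of the 30 interleukin receptors, and by 1, 4 and 3 genes of the other lists, beside the 22.4% of all features given above. In males 0 genes of any of the 5 lists passed, beside 0.0618% of all features. There an unadjusted p under 0.05 was reached by 3 of the 20 chemokine receptors and 5 of the 30 interleukin receptors. The same held for 4 of the 20 other cytokine ligands and 0 genes of the other 2 lists, beside 7.69% of all features. The decoy receptor Il13ra2 averaged −0.45 ± 0.92 in OVX and 1.29 ± 0.19 in sham females (SD, n = 3 each, limma adjusted p = 0.0700).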

How the data were processed

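RNA of each CP pool was hybridised to an Agilent rat array annotated on build rn4, and per the file headers the deposited intensity values are Feature Extraction processed signals, from which background and spatial trend had been subtracted, with no scaling between arrays. The authors' deposited value table holds log2 values made with BRB-ArrayTools and equals the log2 processed signal plus 1 constant per array for 99.3% to 99.7% of probes. Outlier spots (222 to 877 per array) were left out, saturated spots kept, and log2 signals centred on each array's median. Of 42877 spots per array 79.7% to 87.2% were well above background. Genes were named through the RefSeq gene table of GRCr8 (names only), and the brightest probe stood for a gene.

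Linear models with moderated variances were fitted for each sex (limma 3.58.1, run under R 4.3.3), and p-values were adjusted by Benjamini-Hochberg over all 27519 features in females and 27518 in males. The difference between the sexes came from 1 fit of the 4 groups, and intervals cover 95%. On simulated arrays 22% of 2-fold and 82% of 5-fold changes were called in females, over 27448 features, and 36% and 91% in males, over 27509. Members and lists were chosen with earlier results of these data known. Text names members past the threshold, the 8 smallest p per sex among measured members, the 5 smallest p of the difference and a list of known ligands. Normexp used the median spot and background signals with an offset of 50, since the files hold no mean signal. Other scalings, filters, fits, blocks and left-out arrays are given in the closing section. The number of arrays limits the precision.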

Additional observations from a re-analysis of the deposited data

Results flagged for a closer look

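Single arrays far from the others of their group were found in 13 of 130 tests over the male groups, where a nominal rate of 1 in 20 would give 6.5. The tests share arrays and are not independent, and the rate over all genes was not taken. The count is therefore not read as a trait of the members. The flagged values of Ccl28 and Il12b were not well above background. OOX male 2 was highest for Ccl19 (3.90), Cxcl10 (−0.20), Il12a (−4.27), Il16 (1.51) and Il33 (1.56) and lowest for Il12b (−6.21). OOX male 4 was highest for Ccl21 (−1.91) and Ccl28 (−4.33), and OOX male 1 for Il7 (−3.77). Sham male 1 was lowest for Cxcl17 (2.69) and Xcl1 (2.14), sham male 2 highest for Il25 (−0.72) and sham male 4 for Ccl9 (0.13). All are log2 signals over the array median. Il22 stood out because its effect differed between the sexes by 4.51 on the log2 scale, male minus female, by the test of the difference in limma.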

How the results depend on the processing

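In females 9 members and 1989 features were called. The counts were 9 and 2254 with 75th percentile scaling and 8 and 2055 with the authors' value table. Averaging the probes of a gene gave 10 and 2010. The counts were 3 and 143 with quantile normalization, 2 and 203 with normexp, and 2 and 487 with a filter on dim probes. The methods' t-test gave 0 and 13, and all groups in 1 fit gave 3 and 506. Calls of members were also lost with slide or scan day as a block, where OVX female 1 is the only OVX array behind the effect. Leaving out 1 array gave 0 to 6 members and 4 to 1998 features, with calls of members only without sham female 2. In males, where 1 member and 17 features were called, quantile normalization and the dim filter left 0 members, and normexp, the methods' t-test, all groups in 1 fit, and leaving out OOX male 2 and sham male 1 together (chosen after seeing the data) left 0 members and 0 features. Slide as a block gave 29 features and 1 member, not Ccl26 but Ccl21, which among the males OOX male 4 alone measured (−1.91). Leaving out 1 array gave 0 to 1 members and 6 to 15 features in males, and 0 to 1 members in the difference between the sexes, where normexp and slide gave 0.

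With the replicate number as a block 0 members and 0 features were called in females, and 0 members and 8 features in males. Deviations of same-numbered arrays correlated at 0.14, −0.02 and 0.10 in females and at −0.09, −0.31, −0.01 and 0.14 in males, so the numbers were not taken to pair the arrays.

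Among the differences of members named for their p in that comparison or in the difference between the sexes, those that changed sign were Il10 in females with normexp (−0.035) and in males with slide as a block (0.43), Ccl26 (−0.068) and Il1a (−0.084) in males with normexp, and Il34 in males with slide as a block (0.021) and over left-out arrays (−0.25 to 0.011). The cause was not tested. Averaging the probes of a gene brought Il1a past the threshold in females (0.89, limma adjusted p = 0.0399), although its second probe was dim on every array. Of all values of those members under other settings, 508 kept direction and side of the threshold, 129 lost the call, 1 gained it and 6 changed sign. Calls of members outside that set appeared for Ccl26 in females with all groups in 1 fit and Il2 in females without sham female 2. Over all 34 members covered by the naming rule, 13 differences in females, 22 in males and 14 between the sexes changed sign in at least 1 setting, such as those of Ccl2 (−0.36 to 1.27), Cxcl1 (−0.43 to 1.74), Ccl7 (−0.65 to 0.54) and Cxcl14 (−1.12 to 0.49) in males. The median over members ran between −0.13 and 0.021 in females and between −0.082 and 0.45 in males. Dim signals bound only from above.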
